A study of Mus musculus with 2 samples.

Results

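Bile acid synthesis and transport in mouse liver was followed through 10 genes in livers that carried AAV-GFP or AAV-*Wee1-AS*. They comprise the hydroxylases *Cyp7a1*, *Cyp7b1*, *Cyp8b1* and *Cyp27a1*, the conjugating enzymes *Slc27a5* and *Baat*, the transporters *Abcb11* and *Slc10a1*, and the nuclear receptors *Nr1h4* and *Nr0b2*. The genes were chosen by symbol, and all 10 were found among the 45777 gene symbols of the transcript table. All 10 were also among the 15857 symbols with at least 10 estimated counts in 1 library or more, since each of them had at least 486 counts in both libraries.

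C57BL/6 N mice were 7 weeks old when a HFD was started and were fed this diet for 18 weeks. They received 1 of the 2 vectors, AAV-GFP or AAV-*Wee1-AS*, by the retro-orbital route at week 13, which left 5 weeks to the end. *Wee1-AS* is the lncRNA antisense to *Wee1*, and its vector was of the AAV9 serotype with the CMV promoter, which is not restricted to hepatocytes. Both groups were fed the HFD, so no library of LFD-fed mice stands beside them. The sources used here do not give the sex of these mice, the hour of tissue collection or whether mice were pooled. One library of poly-A RNA per group was analysed, although the series' design text mentions 4 liver samples, and *Wee1-AS* itself was not analysed here.

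Bile acids are made from cholesterol in hepatocytes. The classic route begins with CYP7A1, which sets the rate, and the alternative route with CYP27A1 followed by CYP7B1, while CYP8B1 directs the product towards cholic acid. SLC27A5 and BAAT couple bile acids to taurine or glycine, ABCB11 pumps them into the canaliculus and SLC10A1 takes them back up from portal blood. Bile acids bind the receptor FXR, encoded by *Nr1h4*, which raises transcription of *Nr0b2* (the repressor SHP) and of *Abcb11*, and SHP in turn restrains *Cyp7a1* and *Cyp8b1*.

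Promoter sequences are shown for 3 of the genes, because this feedback is known to act through sites near the gene start and because the genes differed in the comparison: *Abcb11* was higher with AAV-*Wee1-AS*, *Nr0b2* was lower and *Cyp8b1* differed by less than 2-fold. Once trends with base composition and length had been taken out, as described below, all 3 differed by less than 2-fold. The windows run from 250 bases before to 50 bases after the start of the gene in RefSeq on GRCm38.p6, 5′ to 3′ on the strand of the gene, and 6 of the 10 genes had a window. Capitals mark the letters of a searched motif. The *Abcb11* window is chr2:69342567-69342866 (minus strand), the *Nr0b2* window is chr4:133553126-133553425 (plus strand) and the *Cyp8b1* window is chr9:121916256-121916555 (minus strand).

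*Abcb11*: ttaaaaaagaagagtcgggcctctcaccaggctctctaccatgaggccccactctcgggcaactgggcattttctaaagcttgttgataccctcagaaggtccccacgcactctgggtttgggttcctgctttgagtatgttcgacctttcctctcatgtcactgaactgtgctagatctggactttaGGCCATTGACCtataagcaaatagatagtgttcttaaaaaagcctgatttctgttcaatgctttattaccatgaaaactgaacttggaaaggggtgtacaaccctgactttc
*Nr0b2*: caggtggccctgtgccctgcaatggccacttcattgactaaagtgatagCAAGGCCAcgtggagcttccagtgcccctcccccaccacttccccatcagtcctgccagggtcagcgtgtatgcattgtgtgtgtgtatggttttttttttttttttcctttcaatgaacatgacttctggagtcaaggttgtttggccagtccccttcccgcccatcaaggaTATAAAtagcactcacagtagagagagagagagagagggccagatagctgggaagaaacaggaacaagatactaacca
*Cyp8b1*: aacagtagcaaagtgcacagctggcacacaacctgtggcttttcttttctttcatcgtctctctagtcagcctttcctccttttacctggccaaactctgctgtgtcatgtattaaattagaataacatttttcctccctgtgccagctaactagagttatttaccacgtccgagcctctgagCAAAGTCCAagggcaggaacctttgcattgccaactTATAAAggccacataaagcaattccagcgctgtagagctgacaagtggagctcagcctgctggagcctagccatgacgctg

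The motifs were searched on both strands and were chosen with these promoters in view. An inverted repeat of the type bound by FXR, in which 1 base separates GGNCA from TGACC, starts 62 bases upstream of the *Abcb11* start, and 78 of 32851 promoter windows (0.237%) hold it. No other window of the 10 genes holds it, that of *Nr0b2* included. The letters CAAGGCCA, of the type bound by LRH-1 (encoded by *Nr5a2*), start 201 bases upstream of the *Nr0b2* start and occur in 2.40% of windows. The letters CAAAGTCCA, of the type bound by HNF4A, start 67 bases upstream of the *Cyp8b1* start and occur in 0.475% of windows. TATAAA starts 31 bases upstream of the *Cyp8b1* start and 28 bases upstream of the *Nr0b2* start, and 13.6% of windows hold it, among them 1 of the windows of *Slc10a1*, where it lies on the reverse strand. CAAGGTCA, held by 1.56% of windows, was in none of the windows of the 10 genes. The windows of *Cyp27a1* and *Nr1h4* held none of the searched motifs. No binding was measured in these livers, so a match is a stretch of letters and not a site in use.

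The AAV-GFP library held 55466182 estimated counts, and the AAV-*Wee1-AS* library held 48079335. With 1 library per group there is no spread between mice and no p-value, and a difference between the libraries cannot be told apart from a difference between individual livers. Each ratio carries an exact (Clopper-Pearson) 95% interval, computed from the counts, that covers counting error only and treats PCR copies as separate molecules. A gene was taken as past 2-fold when its ratio was above 2 or below 0.5. Among all 15857 genes, 4908 (31.0%) were past 2-fold, 3527 of them higher with AAV-*Wee1-AS* (22.2%) and 1381 lower (8.71%). The ratio also followed base composition across all genes: of 10 groups of genes ordered by GC content, the group of lowest GC content had a median log2 ratio of 1.43, and the group of highest GC content had a median of -0.69. For this reason the ratios are also given after lowess trends with base composition and length had been taken out, which is called trend removal here. After it, 2376 of 14995 genes with a GC value (15.8%) were past 2-fold, 1039 higher (6.93%) and 1337 lower (8.92%). A simpler check subtracted the median of the GC group from each gene. It is given for the counts and the median of the 10 genes in the closing section, and for single genes beside the plot of ratio against GC content.

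Hepatocyte RNA dominated both libraries. The 7 hepatocyte markers that were matched summed to 84409 TPM (a level per transcript length that sums to the same total in both libraries) with AAV-GFP and 92221 TPM with AAV-*Wee1-AS*, and 1 of them was past 2-fold (0 after trend removal). Of 8 pericentral and 8 periportal hepatocyte markers, 1 and 0 were past 2-fold, and 0 of either list after trend removal. The cholangiocyte markers, for the bile duct cells that also handle bile acids, summed to 56.1 and 58.5 TPM, and *Cftr* and *Sctr* were at or under 3 counts in both libraries. Of the 7 that passed the count filter, 1 was past 2-fold, the bile acid transporter gene *Slc10a2*, named after its values were seen, at 3.15 and 11.9 TPM (log2 ratio 1.93, and 0.48 after trend removal), whereas trend removal left 0 higher and 1 lower, *Spp1*, at -0.21 before it and -1.05 after it. Of 5 ileal enterocyte markers, *Fabp6* and *Fgf15* were at 0 in both libraries, while *Fabp2* had 160.1 and 175.1 TPM and *Apoa4*, which the liver also makes, 6107 and 961.3 TPM (log2 ratio -2.64, and -1.89 after trend removal). Kupffer cell markers summed to 333.0 and 270.1 TPM, with 3 of 6 higher by more than 2-fold (1 after trend removal). Endothelial markers summed to 126.5 and 104.0 TPM, with 0 of 5 past 2-fold on either scale. Stellate cell markers summed to 108.4 and 114.4 TPM, with 1 of 5 higher and 1 lower by more than 2-fold (0 and 2 after trend removal). All of these marker counts stand beside 22.2% higher and 8.71% lower among all genes, or 6.93% and 8.92% after trend removal. The part of these lists in the results was not tested. In bulk RNA, fewer cells of a type and less RNA per cell cannot be told apart.

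Of the 10 genes, 3 were past 2-fold with the higher level in the AAV-*Wee1-AS* library (*Cyp7a1*, *Cyp7b1* and *Abcb11*) and 1 with the lower level there (*Nr0b2*). This is 4 of 10 genes beside 31.0% of all genes, and 3 of 10 higher beside 22.2%. The median log2 ratio over the 10 genes was 0.14, beside -0.02 over all genes. After trend removal, *Cyp7a1* alone of the 10 was past 2-fold, beside 15.8% of all genes, and the median of the 10 was 0.30.

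**Figure D1:**
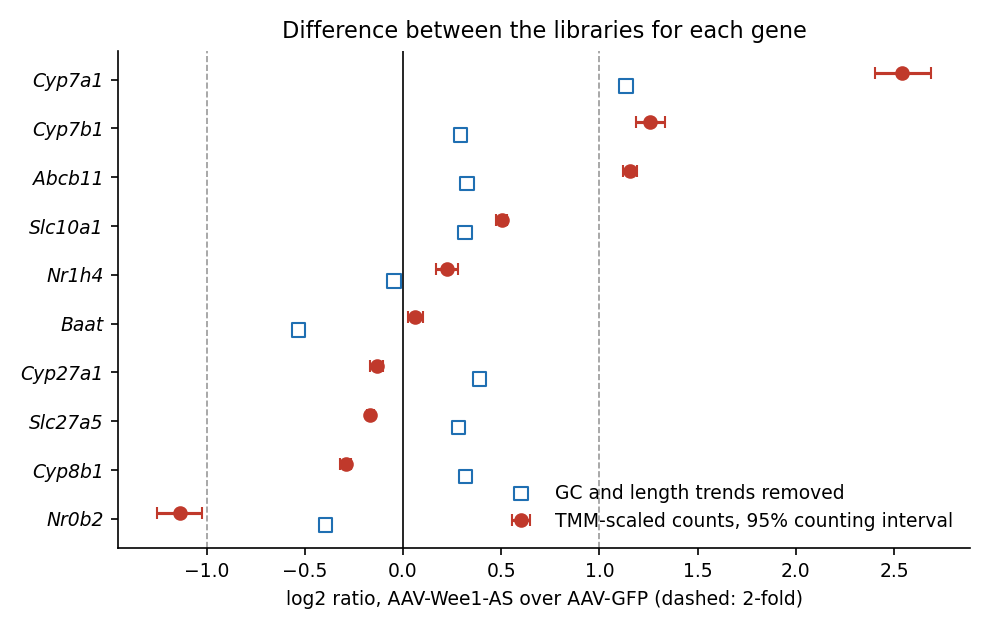
Difference between the libraries for each of the 10 genes, with log2 of AAV-*Wee1-AS* over AAV-GFP on the horizontal axis; dots are TMM-scaled counts with the 95% counting interval (1 library per group), open squares the same with GC and length trends removed, and dashed lines mark 2-fold. *Cyp7a1* lies past 2-fold both ways, at 2.54 and 1.13, while *Cyp7b1*, *Abcb11* and *Nr0b2* lie past it only before the trends are removed.

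*Cyp7a1*, the rate-limiting hydroxylase of the classic route, had 486 estimated counts with AAV-GFP and 2362 with AAV-*Wee1-AS*. Its level was 3.53 TPM in the former library and 20.3 TPM in the latter. The ratio was 5.81-fold, a log2 ratio of 2.54 (95% counting interval 2.40 to 2.69), which was the largest of the 10. Its transcript has 39.7% GC, in the group of lowest GC content, where 65.4% of genes were higher by more than 2-fold. Its log2 ratio after trend removal was 1.13, a 2.20-fold difference. The gene lies at chr4:6265612-6275632 (mm10), and all of its counts came from 1 transcript.

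Hepatic *Cyp7a1* is known to vary over the day, so genes of the circadian clock are given beside it. Of 13 clock genes, 4 were higher with AAV-*Wee1-AS* by more than 2-fold and 2 lower, beside 22.2% and 8.71% of all genes, and after trend removal 2 were higher and 1 lower, beside 6.93% and 8.92%. *Nr1d1*, the receptor REV-ERBα, had 7777 counts with AAV-GFP and 2733 with AAV-*Wee1-AS*, and *Nr1d2*, the related REV-ERBβ, had 666 and 3389. Their log2 ratios were thus of opposite sign, -1.24 and 2.61, and -0.57 and 1.26 with the trends removed. The summed level of the clock genes was 360.1 TPM with AAV-GFP and 293.6 TPM with AAV-*Wee1-AS*. Of their 13 log2 ratios, however, 8 were above 0, with a median of 0.66, and 9 after trend removal, with a median of 0.33. The part of the clock genes in the *Cyp7a1* difference was not tested.

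*Cyp7b1*, the oxysterol 7α-hydroxylase of the alternative route, had 2316 counts with AAV-GFP and 4623 with AAV-*Wee1-AS*. Its level was 32.1 and 75.4 TPM, and the log2 ratio was 1.26 (1.19 to 1.33), a 2.40-fold difference. Its transcript has 42.5% GC, in a group of genes with a median log2 ratio of 1.13, and with the trends removed its log2 ratio was 0.29. Of its 3 transcripts (chr3:18071944-18243890), the main one held 88.1% of the counts with AAV-GFP and 83.6% with AAV-*Wee1-AS*.

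*Cyp7b1* is a gene known to be higher in the livers of male mice, so other genes with a known sex bias are given beside it. Of 8 other male-biased genes, 2 were higher by more than 2-fold and 0 lower, beside 22.2% and 8.71% of all genes, and log2 ratios ran from -0.37 to 3.78. After trend removal, 3 of the 8 were higher and 1 lower, beside 6.93% and 8.92% of all genes, from -1.50 to 3.70. Of the female-biased genes, 4 passed the count filter and 3 of these were lower by more than 2-fold, beside 8.71% of all genes (2 after trend removal, beside 8.92%), while *Cyp3a41a* was at 0 in both libraries. The log2 ratios of the 4 ran from -7.25 to -0.55, and from -8.28 to -0.60 after trend removal. The lowest was *Cyp3a44*, with 330 counts with AAV-GFP and 0 with AAV-*Wee1-AS*, so the size of its ratio rests on the prior count. All 4 Y chromosome genes were detected in both libraries, at 52 to 252 counts with AAV-GFP and 322 to 974 with AAV-*Wee1-AS*. Log2 ratios ran from 1.76 to 2.84 before trend removal and from 0.31 to 1.25 after it. All 4 were higher by more than 2-fold, beside 22.2% of all genes, and 2 after trend removal, beside 6.93%. Their median GC content was 36.2%, and in the group of lowest GC content 65.4% of genes were higher by more than 2-fold. The part of these sex-biased and Y chromosome genes in the *Cyp7b1* difference was not tested.

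*Cyp8b1*, the sterol 12α-hydroxylase, had 26650 counts with AAV-GFP and 18147 with AAV-*Wee1-AS*. Its level was 414.9 and 333.4 TPM, and the log2 ratio was -0.29 (-0.32 to -0.26). The transcript has 54.8% GC, in a group of genes with a median log2 ratio of -0.50, and with the trends removed the log2 ratio was 0.32, on the other side of 0. All counts came from 1 transcript at chr9:121914356-121916305.

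*Cyp27a1*, the mitochondrial sterol 27-hydroxylase that opens the alternative route, had 19506 counts with AAV-GFP and 14802 with AAV-*Wee1-AS*. Its level was 300.9 and 270.1 TPM, and the log2 ratio was -0.13 (-0.17 to -0.10). At 53.5% GC it falls in the same group as *Cyp8b1*, and its log2 ratio with the trends removed was 0.39. Its main transcript held 16037 of the counts with AAV-GFP and 12575 with AAV-*Wee1-AS* (chr1:74713148-74737897). The 2 hydroxylases that were past 2-fold thus had transcripts of low GC content, and the 2 that were not had transcripts of high GC content.

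The distance between the hydroxylases within a library does not rest on scaling between libraries. The level of *Cyp8b1* was 117.5 times that of *Cyp7a1* with AAV-GFP and 16.4 times with AAV-*Wee1-AS*. *Cyp27a1* was 85.2 times the level of *Cyp7a1* in the former and 13.3 times in the latter. *Cyp7b1* was 9.08 times the level of *Cyp7a1* with AAV-GFP and 3.72 times with AAV-*Wee1-AS*. *Cyp7a1* stayed the lowest of the 4 in both libraries, and these ratios of TPM were not corrected for GC content.

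**Figure D2:**
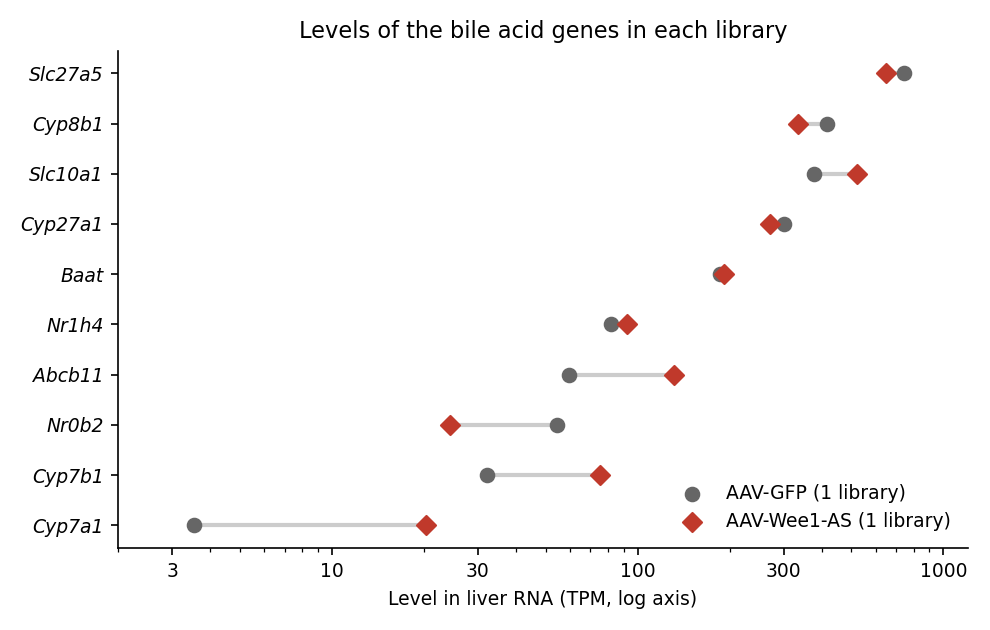
Level of each of the 10 genes in TPM (horizontal axis, log scale) in the AAV-GFP library (circles) and the AAV-*Wee1-AS* library (diamonds), 1 library each and with no error bars because there is no replicate. The genes span 3.53 to 742.5 TPM with AAV-GFP and 20.3 to 650.6 TPM with AAV-*Wee1-AS*, with *Cyp7a1* lowest and *Slc27a5* highest in both.

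*Slc27a5*, the bile acyl-CoA synthetase that activates bile acids for conjugation, was the most abundant of the 10 genes. It had 56981 counts with AAV-GFP and 42314 with AAV-*Wee1-AS*, or 742.5 and 650.6 TPM. The log2 ratio was -0.17 (-0.18 to -0.15), and with the trends removed it was 0.28 (53.1% GC). Its single transcript lies at chr7:12988346-12998192.

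*Baat*, which transfers taurine or glycine to the activated bile acid, had 12029 counts with AAV-GFP and 10470 with AAV-*Wee1-AS*, or 185.5 and 191.6 TPM. The log2 ratio was 0.06 (0.03 to 0.10), the closest to 0 of the 10 genes, and it was -0.06 with upper-quartile scaling. Its transcript has 44.9% GC, in a group of genes with a median log2 ratio of 0.72, and with the trends removed its log2 ratio was -0.53, the lowest of the 10. The gene (chr4:49489416-49507915) overlaps *Gm32894*, which had 15 and 57 counts.

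*Abcb11*, the bile salt export pump, had 9664 counts with AAV-GFP and 17961 with AAV-*Wee1-AS*. Its level was 59.7 and 131.2 TPM, a 2.23-fold difference with a log2 ratio of 1.16 (1.12 to 1.19). Its transcript has 46.0% GC, in the same group as *Baat*, where 38.1% of genes were higher by more than 2-fold, and with the trends removed the log2 ratio was 0.33. Of its 3 transcripts (chr2:69238282-69342616), the most abundant held 76.3% of the counts with AAV-GFP and 80.1% with AAV-*Wee1-AS*.

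*Slc10a1*, the sodium-dependent uptake carrier NTCP, had 21297 counts with AAV-GFP and 25120 with AAV-*Wee1-AS*, or 376.4 and 523.3 TPM. The log2 ratio was 0.50 (0.48 to 0.53), and the median of genes of similar GC content (47.7%) was 0.48. Trend removal left a log2 ratio of 0.32. The counts were divided among 3 transcripts (chr12:80953185-80968705), and the one with the upstream start held 61.5% with AAV-GFP and 64.2% with AAV-*Wee1-AS*. Uptake carrier exceeded export pump in both libraries, 6.30 times with AAV-GFP and 3.99 times with AAV-*Wee1-AS*, in TPM not corrected for GC content.

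*Nr1h4*, which encodes FXR, had 5420 counts with AAV-GFP and 5278 with AAV-*Wee1-AS*. Its level was 81.5 and 92.4 TPM, with a log2 ratio of 0.23 (0.17 to 0.28), and -0.04 with the trends removed (47.2% GC). FXR is made in isoforms that differ in their first exons and by a short insertion. Of its 7 listed transcripts (chr10:89454234-89533645), the 2 that start farthest upstream held 47.2% of the counts with AAV-GFP and 52.8% with AAV-*Wee1-AS*. The 3 that start downstream held 43.2% and 42.1%, and the 2 with a start between these held 9.54% and 5.04%. A pair of downstream-start transcripts that differ in length by 12 bases had 347 and 554 counts for the longer one and 1222 and 1207 for the shorter one. These shares were assigned by the authors' program to transcripts that overlap almost entirely, so they carry no counting interval.

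*Nr0b2*, which encodes the repressor SHP, had 2304 counts with AAV-GFP and 872 with AAV-*Wee1-AS*. Its level was 54.5 and 24.4 TPM, and the log2 ratio was -1.14 (-1.25 to -1.03), the lowest of the 10 genes. Its transcript has 57.8% GC, in the group of highest GC content, where 20.6% of genes were more than 2-fold lower. After trend removal the log2 ratio was -0.40, still below 0. All counts came from 1 transcript at chr4:133553376-133556686. *Nr1h4* was 1.49 times the level of *Nr0b2* with AAV-GFP and 3.79 times with AAV-*Wee1-AS*, and *Nr0b2* was 15.4 and 1.20 times the level of *Cyp7a1*. These ratios of TPM were not corrected for GC content. *Cyp7a1* lies in the group of lowest GC content, with a median log2 ratio of 1.43, and *Nr0b2* in that of highest, at -0.69.

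*Nr0b2* and *Abcb11*, which bile acids are known to raise through FXR, thus lay on opposite sides, at log2 ratios of -1.14 and 1.16. *Cyp7a1* and *Cyp8b1*, which SHP is known to restrain, were at 2.54 and -0.29. After trend removal, *Nr0b2* was at -0.40, *Abcb11* at 0.33, *Cyp7a1* at 1.13 and *Cyp8b1* at 0.32.

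In order of level, the AAV-GFP library ran *Slc27a5*, *Cyp8b1*, *Slc10a1*, *Cyp27a1*, *Baat*, *Nr1h4*, *Abcb11*, *Nr0b2*, *Cyp7b1* and *Cyp7a1*. With AAV-*Wee1-AS*, 6 genes had another place: *Slc10a1* stood above *Cyp8b1*, *Abcb11* above *Nr1h4* and *Cyp7b1* above *Nr0b2*. The closest neighbours were *Abcb11* and *Nr0b2* with AAV-GFP (1.10-fold, counting interval 1.05 to 1.15) and *Nr0b2* and *Cyp7a1* with AAV-*Wee1-AS* (1.20-fold, 1.11 to 1.30), so each step in the order exceeded counting error, while the spread between mice is unknown. The highest gene stood 210.2 times above the lowest with AAV-GFP and 32.1 times with AAV-*Wee1-AS*, and the 10 genes summed to 2252 and 2313 TPM. Among all genes ranked by TPM, *Cyp7a1* was at place 7960 with AAV-GFP and 3427 with AAV-*Wee1-AS*, *Nr0b2* at 1881 and 3014, and *Slc27a5* at 195 and 191. These levels and places were not corrected for GC content.

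**Figure D3:**
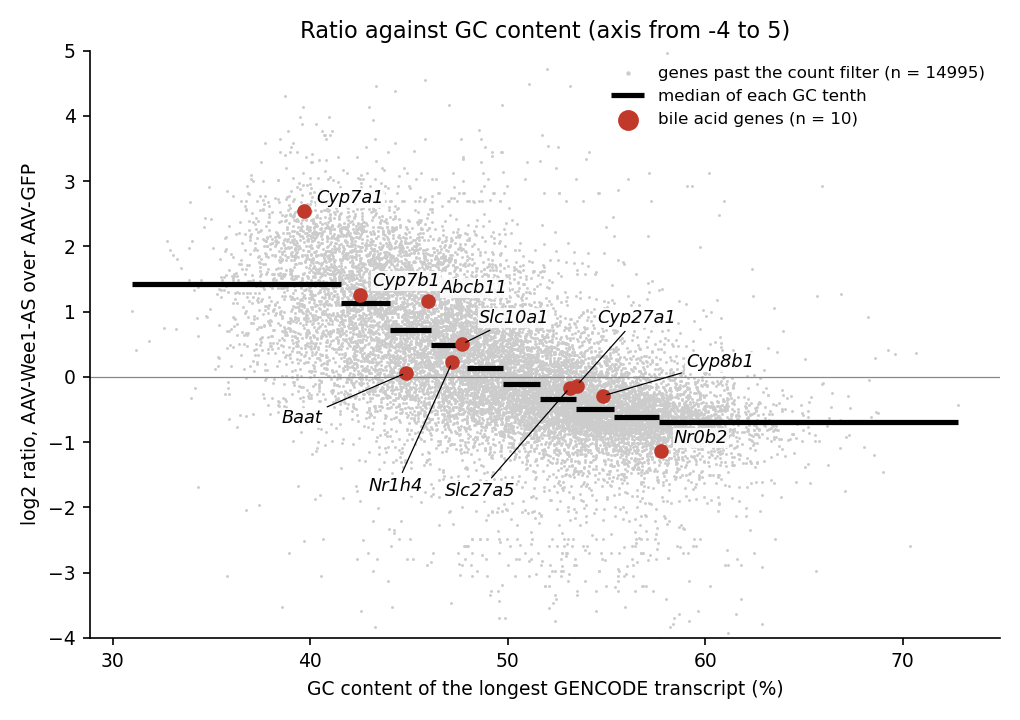
Log2 ratio of AAV-*Wee1-AS* over AAV-GFP (vertical axis, from -4 to 5, with 23 genes outside it) against the GC content of the longest GENCODE transcript in percent, for 14995 genes (grey), with black bars for the median of each of 10 GC groups of equal size and red dots for the 10 bile acid genes. *Cyp7a1* lies 1.11 above the bar of its group, *Abcb11* 0.44 above, *Nr0b2* 0.45 below and *Baat* 0.65 below.

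The remaining pathway was described with 70 further genes in 8 lists by role, of which 65 passed the count filter. Among the 65, 17 were more than 2-fold above their AAV-GFP level and 4 more than 2-fold below it, beside 22.2% and 8.71% of all genes, and the median log2 ratio was 0.13. Trend removal left 8 higher and 3 lower, beside 6.93% and 8.92% of all genes, and a median of 0.05. The counts describe 1 library per group, and the lists were not tested against other genes.

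Among 13 other enzymes of synthesis, 4 were past 2-fold as higher with AAV-*Wee1-AS* and 2 as lower, beside 22.2% and 8.71% of all genes, and 2 and 1 after trend removal, beside 6.93% and 8.92%. *Akr1d1*, the 5β-reductase that saturates the steroid ring, had 1867 counts with AAV-GFP and 6611 with AAV-*Wee1-AS*, a log2 ratio of 2.09 (2.01 to 2.16) that was 0.93 with the trends removed. The hydroxysteroid dehydrogenases *Akr1c14* and *Akr1c6* had log2 ratios of 2.73 and 1.68, and 1.43 and 0.64 with the trends removed. They belong to a family of near-identical genes among which reads may be split. *Cyp39a1*, an oxysterol 7α-hydroxylase, had 295 and 595 counts, a log2 ratio of 1.27 (1.07 to 1.48) that was 0.42 with the trends removed. *Por*, named after its values were seen, was past 2-fold only after trend removal. It had 24838 and 29254 counts, with log2 ratios of 0.50 and, with the trends removed, 1.21.

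*Hsd3b7*, which follows 7α-hydroxylation in both routes and was the most abundant of these enzymes with AAV-GFP, had 671.7 TPM there and 395.9 TPM with AAV-*Wee1-AS*. Its log2 ratio was -0.74 (-0.76 to -0.71), and -0.24 with the trends removed. *Cyp2c70*, which makes muricholic acids in mice, had 115.0 and 183.8 TPM, with log2 ratios of 0.70 and, with the trends removed, -0.24. The 2 genes lower by more than 2-fold, named after their values were seen, were *Cyp46a1* (504 and 174 counts) and *Ch25h* (28 and 6 counts), which hydroxylate the cholesterol side chain. *Cyp46a1* was no longer past 2-fold after trend removal, with log2 ratios of -1.26 before it and -0.53 after it. *Ch25h* was at -1.69 and -1.56, and its counting interval before trend removal (-3.52 to -0.66) reached inside 2-fold. None of 8 genes of side chain shortening and conjugation was past 2-fold by either scale, beside 31.0% of all genes and 15.8% after trend removal, and *Scp2*, the most abundant, had 1368 and 2189 TPM, with log2 ratios of 0.70 and, after trend removal, 0.05.

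**Figure D4:**
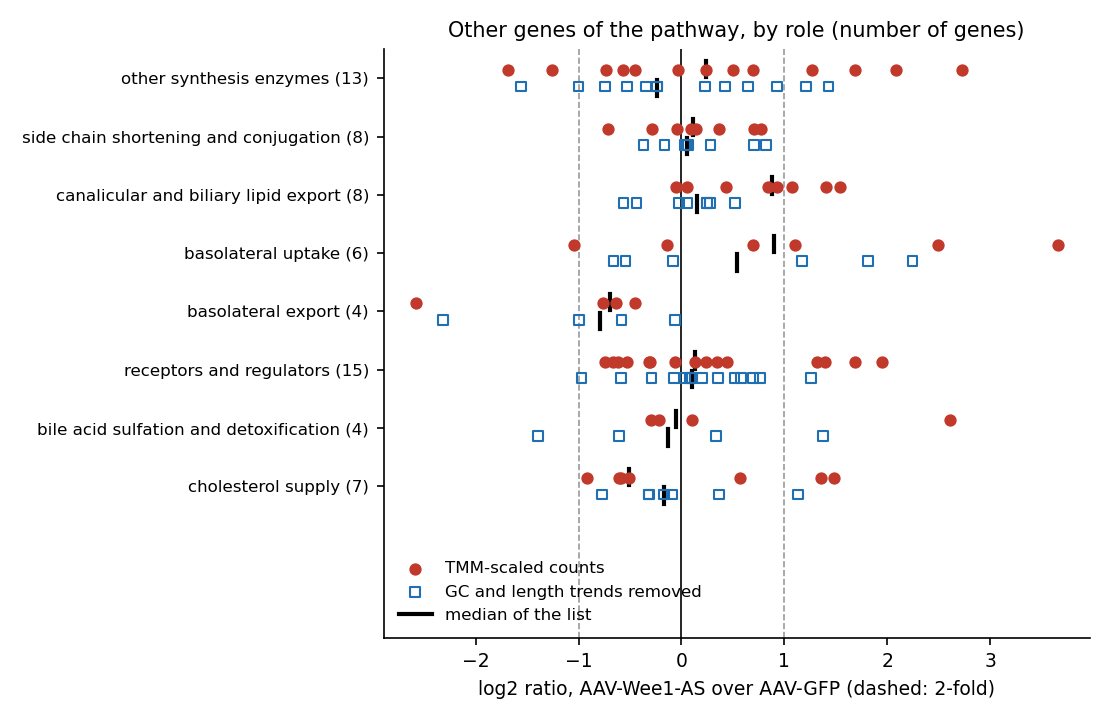
Log2 ratios of AAV-*Wee1-AS* over AAV-GFP for 65 other bile acid genes in 8 lists by role, with the number of genes past the count filter in brackets; red dots are TMM-scaled counts, open squares the same genes with GC and length trends removed, black bars list medians and dashed lines 2-fold. Basolateral uptake reaches furthest to the right, at 3.65, and basolateral export furthest to the left, at -2.58.

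Beside *Abcb11*, 3 of 8 genes of canalicular and biliary lipid export were higher by more than 2-fold and 0 lower, beside 22.2% and 8.71% of all genes, with a list median of 0.88. They were *Atp8b1*, a phospholipid flippase of the canalicular membrane (529 and 1286 counts), its partner *Tmem30a* (1358 and 2987) and the transporter *Abcg2* (3233 and 5653). After trend removal their log2 ratios were 0.52, 0.05 and -0.56, no gene of the list was past 2-fold, beside 15.8% of all genes, and the median was 0.15. *Abcb4*, the phosphatidylcholine floppase, was the most abundant with AAV-GFP (90.9 TPM and 120.0 TPM), and *Abcc2*, the conjugate exporter, with AAV-*Wee1-AS* (80.4 and 141.4 TPM). The log2 ratio of *Abcb4* was 0.43, and 0.25 after trend removal, and that of *Abcc2* was 0.84 and on the other side of 0 afterwards, at -0.44.

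Beside *Slc10a1*, 3 of 6 genes of basolateral uptake were higher by more than 2-fold and 1 lower, beside 22.2% and 8.71% of all genes, and 3 and 0 after trend removal, beside 6.93% and 8.92%. *Slco1b2*, the main sodium-independent carrier of bile acids in mouse liver, had 8226 counts with AAV-GFP and 38461 with AAV-*Wee1-AS*, or 75.9 and 420.3 TPM. Its log2 ratio was 2.49 (2.45 to 2.52), and 1.17 with the trends removed. *Slco1a1*, a related carrier, had 668 and 7028 counts, a log2 ratio of 3.65 (3.54 to 3.78) that was 2.24 with the trends removed. It shares sequence with *Slco1a4*, and it is also one of the male-biased genes counted above. *Slc22a7*, an organic anion transporter, had 1755 and 3140 counts, with log2 ratios of 1.10 and, with the trends removed, 1.81. *Ephx1*, an epoxide hydrolase that has been linked to bile acid uptake, had 63030 and 25420 counts, with log2 ratios of -1.05 and, with the trends removed, -0.54.

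Of the 4 genes of basolateral export that passed the count filter, 1 was lower by more than 2-fold, beside 8.71% of all genes, and 1 after trend removal, beside 8.92%. Their log2 ratios ran from -2.58 to -0.45 and, after trend removal, from -2.31 to -0.06. The median of the list was -0.70 before trend removal and -0.79 after it. Their median GC content was 52.4%. The median log2 ratio of the GC group was 0.14 for *Abcc4*, -0.12 for *Slc51b*, -0.50 for *Abcc3* and -0.69 for *Abcc6*. The part of GC content in these ratios was not tested. The gene past 2-fold, *Slc51b*, which encodes the β subunit of the organic solute transporter, had 54 counts with AAV-GFP and 6 with AAV-*Wee1-AS*. Its log2 ratio was -2.58 (-4.41 to -1.69), and -2.31 with the trends removed. *Slc51a*, the α subunit, was at 0 in both libraries. *Abcc3*, the most abundant of the list, had 204.6 and 119.0 TPM, with log2 ratios of -0.76 and, after trend removal, -0.58.

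Among receptors and regulators, 4 of 15 genes were higher by more than 2-fold and 0 lower, beside 22.2% and 8.71% of all genes, and 1 and 0 after trend removal, beside 6.93% and 8.92%. *Nr5a2*, which encodes LRH-1 and activates *Cyp7a1* and *Nr0b2*, had 815 counts with AAV-GFP and 2184 with AAV-*Wee1-AS*, a log2 ratio of 1.68 (1.57 to 1.80). *Prox1*, a co-repressor of LRH-1 and HNF4A, had 1537 and 4937 counts and a log2 ratio of 1.95. In the same order, trend removal left 0.52 and 0.70. The other 2 were *Onecut1* (162 and 358 counts) and the coactivator gene *Ppargc1a* (103 and 216 counts), with log2 ratios of 1.40 and 1.31, and 1.26 and -0.29 with the trends removed. *Hnf4a*, which activates several genes of synthesis, had a log2 ratio of -0.06 (-0.09 to -0.04), and 0.20 after trend removal, on the other side of 0. *Fgfr4* and *Klb*, which form the hepatic receptor for intestinal FGF15, had log2 ratios of -0.53 and 0.44, and 0.10 and 0.36 with the trends removed. *Cebpa*, the most abundant, had 342.8 and 212.2 TPM, with log2 ratios of -0.67 and, after trend removal, 0.08.

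In the list of sulfation and detoxification, 1 of 4 genes was past 2-fold, beside 31.0% of all genes, and 2 after trend removal, 1 higher and 1 lower, beside 15.8%. *Sult2a8*, a bile acid sulfotransferase of mouse liver, had 3423 counts with AAV-GFP and 17454 with AAV-*Wee1-AS*, a log2 ratio of 2.61 (2.56 to 2.67) that was 1.38 with the trends removed, while *Sult2a2* was at 0 in both libraries and *Sult2a1* at 0 and 2 counts. *Cyp3a11*, the most abundant, had log2 ratios of -0.21 and, with the trends removed, -1.40. Of 7 genes of cholesterol supply, *Hmgcs1* and *Sqle*, both of cholesterol synthesis, were higher by more than 2-fold, beside 22.2% of all genes, with log2 ratios of 1.36 and 1.48. With the trends removed these were 0.36 and 1.13, so that 1 was past 2-fold, beside 6.93%. *Scarb1*, the HDL receptor and most abundant of that list, had 167.5 and 109.5 TPM, with log2 ratios of -0.59 and, after trend removal, -0.77.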

How the data were processed

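Liver RNA of 1 library per group was sequenced by the authors from poly-A RNA with a stranded kit. Per the labels, reads were handled with Trimmomatic 0.38, HISAT2 2.1.0, SAMtools 1.9 and StringTie 2.1.3b on mm10. The authors deposited 1 table of 129299 RefSeq transcripts with, for each library, an estimated count, an FPKM value and a TPM value. The deposited estimated counts are FPKM times length over a constant, rounded up, and overlapping transcripts share reads in them.

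Estimated counts, FPKM and TPM were summed over the transcripts of a symbol. Counts were scaled by TMM in edgeR 4.0.16 (R 4.3.3), with factors of 1.02 (AAV-GFP) and 0.980 (AAV-*Wee1-AS*), and log2 ratios were taken with a prior count of 2. Trends with GC content and length of the longest GENCODE M21 transcript were removed for 94.6% of genes by lowess (span 0.3, 5 cycles). The floor of a library was 3 counts. The steps were run in Python 3.11.15 (statsmodels 0.14.6 for lowess, scipy 1.17.1 for intervals, pandas 2.3.3, numpy 2.4.6 and matplotlib 3.10.9) and were tested on simulated data.

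The 10 genes, the lists and the tests were chosen with earlier results of these data known. Of each list, genes past 2-fold and reaching 100 counts were named, up to 4 by size, with the gene of highest TPM, and 8 genes close to the 10 were named whatever their values (*Hsd3b7*, *Cyp2c70*, *Cyp39a1*, *Slc51b*, *Fgfr4*, *Klb*, *Nr5a2* and *Hnf4a*). The lists of cell type, clock and sex-biased genes were to be given as counts and sums only, and *Nr1d1*, *Nr1d2*, *Slc10a2*, *Spp1*, *Fabp2*, *Apoa4* and *Cyp3a44* were named after their values were seen. As alternatives, libraries were scaled by their totals, by totals leaving out the 20 most abundant genes, by the upper quartile or by DESeq2 1.42.0, with further alternatives of a prior count of 0.5, FPKM or TPM with a pseudocount of 1, other count filters, the most abundant transcript, removal of the trends and, added after the data were seen, subtraction of the median of the GC group. Protein sequences were not used here.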

Additional observations from a re-analysis of the deposited data

How the results depend on the processing

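The 4 bile acid genes past 2-fold were 4 under each other scaling, unit and prior count and with the most abundant transcript of each gene, but 1 with the GC content and length trends removed and 1 with the median of the GC group subtracted. The log2 ratio of *Cyp7a1* ranged from 2.00 (FPKM) to 2.55 over the other scalings, units and transcripts, that of *Cyp7b1* from 1.14 to 1.27, that of *Abcb11* from 1.04 to 1.23 and that of *Nr0b2* from -1.25 to -1.12. The upper quartile moved the median of all genes by -0.12 and turned *Baat* to -0.06. The median of the 10 genes was 0.087 with library totals, 0.026 with the upper quartile, 0.095 without the 20 most abundant genes, 0.087 with FPKM, 0.30 with the trends removed and 0.26 with the most abundant transcript, against 0.14. With the median of the GC group subtracted it was 0.15. Of the 65 other pathway genes that passed the count filter, 21 were past 2-fold, but 11 with the trends removed and 12 with the median of the GC group subtracted. Of all genes, 4908 were past 2-fold, but 1336 with FPKM, 2046 with TPM, 2376 with the trends removed and 2738 with the median of the GC group subtracted. The pseudocount of 1 weighs on genes of low FPKM or TPM, and the cause of the other shifts was not tested. Over 100 values of single genes under alternatives, 89 kept their sign and no ratio past 2-fold changed sign. *Cyp8b1*, *Cyp27a1*, *Nr1h4*, *Baat* and *Slc27a5* changed sign both with the trends removed and with the median of the GC group subtracted. The only other change of sign was that of *Baat* with the upper quartile. Of the 100 values, 59 lay outside the counting interval of the gene's main log2 ratio. The 486 counts of *Cyp7a1* with AAV-GFP were the lowest of the 10 genes, and its counting interval was the widest among them. With 1 library per group, no replicate could be left out and the spread between mice is not known.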
